A study of Drosophila melanogaster with 8 samples.

Results

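The scaffold chr3RHet of Drosophila melanogaster genome build dm3, called 3RHet below, holds heterochromatin that was assigned to the right arm of chromosome 3 but not joined to it. All 1 kb windows of the scaffold were taken, 2518 of the 168744 windows listed for the genome. They cover positions 1 to 2517507, and were grouped into 26 bins of 100 kb numbered from the scaffold's first base. Of the 2518 windows, 607 (24.1%) had a mean input of at least 2 RPKM (a read count divided by window length and by library total) and entered the tests, against 117126 of 168744 windows (69.4%) in the genome.

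The study measured histone H3 trimethylated on lysine 9 (H3K9me3) by chromatin immunoprecipitation and sequencing (ChIP-seq) in ovaries of adult flies. The MTgal4 driver was present in all flies and was combined with 1 of 2 short hairpin RNAs: shSov, named for Sov, or shW, taken here as the control. Each genotype had 2 ChIP libraries, made with an antibody to H3K9me3, and 2 input libraries of genomic DNA taken from the lysate before the immunoprecipitation. Flies received yeast before dissection. The series title places the question in germ cells, but whole ovaries also contain somatic cells, so every value is a mixture of both. A single hairpin per gene was used, and the level of Sov was not analysed here.

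H3K9me3 is the mark that defines constitutive heterochromatin, the compact and repeat-rich chromatin that surrounds centromeres. Methyltransferases deposit it, and Heterochromatin Protein 1 (HP1a) binds it and helps it to spread and persist. In the fly ovary the mark silences transposons, and it also covers the genomic clusters from which germ cells make piRNAs, the small RNAs that guide silencing. Sov (Small ovary) is a zinc-finger protein known to associate with HP1a. An input library reads how much DNA of a window is present and can be mapped, and a ChIP library reads that amount multiplied by the density of the mark. Both readouts are therefore given side by side throughout.

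The libraries ranged from 4208693 to 27962050 reads. On 3RHet they held 308564 and 113633 reads in the shSov ChIP libraries, 70314 and 116794 in the shW ChIP libraries, 115148 and 109946 in the shSov inputs, and 41312 and 32052 in the shW inputs. Per tested window the median was 273 and 103 reads in shSov ChIP against 64 and 101 in shW ChIP, and 116 and 119 in shSov input against 43 and 33 in shW input. One pair of replicates stood apart. Across the 607 tested windows the chi-square statistic between the shW ChIP libraries was 5.32 per degree of freedom, against 1.78 for the shSov ChIP libraries and 1.25 and 1.21 for the shSov and shW inputs. Across the same windows, which share libraries and are not independent, enrichment correlated between replicates with r = 0.94 in shSov and r = 0.62 in shW. No label says that replicates came from separate lysates or flies, so p-values measure the spread between these libraries, which may be technical. With 2 libraries against 2, the smallest p an exact permutation test allows is 0.33.

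The windows that entered the tests were unevenly placed. They formed 121 runs with a median length of 3 windows, and the longest run held 43 windows (1878001 to 1921000). Bins 17 to 21 (1600001 to 2100000) had 272 of 500 windows tested, bins 1 to 9 had 191 of 900, and bins 22 to 26 had 144 of 418. Bins 10 to 16 (900001 to 1600000) had none of 700. Across the scaffold 627 windows (24.9%) held no read in any of the 8 libraries. The threshold fell in a continuous range of values, with windows at 1.99, 2.00 and 2.00 RPKM just below it and at 2.01, 2.01 and 2.01 RPKM just above. It also depended on genotype: 180 tested windows reached 2 RPKM in the mean shSov input but not in the mean shW input, and 5 did the opposite, leaving 422 windows that reached it in both genotypes.

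**Figure D1:**
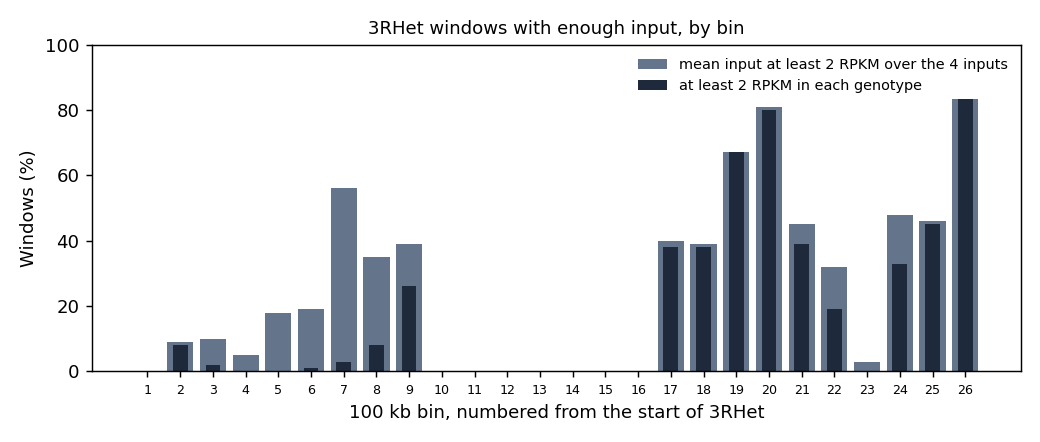
Percentage of 1 kb windows in each 100 kb bin of 3RHet with a mean input of at least 2 RPKM. Darker, narrower bars show the percentage with at least 2 RPKM in each genotype. Bins are numbered from the scaffold's start on the horizontal axis, and bin 26 holds only 18 windows. Bins 17 to 21 hold 272 of the 607 tested windows, and bins 10 to 16 hold none.

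The part of 3RHet that could be tested was marked by H3K9me3 in both genotypes. Mean enrichment, log2((ChIP RPKM + 1)/(input RPKM + 1)), was 1.75 and 1.76 in the shSov libraries against 2.07 and 2.06 in the shW libraries. The shSov values lay below the shW values with no overlap. The means were 1.76 ± 0.0050 in shSov and 2.07 ± 0.0053 in shW (SD, n = 2 each), a difference of -0.31 on the log2 scale (two-sided exact permutation test, p = 0.33). The median change over all 117126 tested windows of the genome was 0.18, with library totals as the scale. That median depended on the scaling: the log2 change fitted to counts had a median of -0.43 on 3RHet and 0.19 in the genome with edgeR and library totals, -0.58 and 0.05 with edgeR and TMM factors, and -0.65 and -0.01 with DESeq2. In each case the scaffold's median lay below the genome's by about the same amount. In euchromatin of the 3R arm farther than 1 Mb from the arm's centromeric end, enrichment averaged -0.33 in shSov and -0.54 in shW.

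Most tested windows kept the mark in shSov. A log2 enrichment of 1 or more in each replicate was found in 497 windows (81.9%) of shSov and 552 windows (90.9%) of shW, of which 491 were shared. Over the genome the same criterion held in 5.8% of tested windows in shSov and 7.23% in shW. Windows with enrichment below 0 numbered 2 and 4 in the shSov libraries and 0 and 0 in the shW libraries.

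The lower enrichment was spread over the scaffold's windows. It was lower in shSov in 493 of 607 windows (81.2%), against 30.9% of tested windows in the genome. On 3LHet, the matching scaffold of the left arm, the share was 73.2%. The median change on 3RHet was -0.33, with quartiles of -0.53 and -0.09. In 315 windows (51.9%) each shSov value was below each shW value, against 12.1% of tested windows in the genome, and in 32 windows (5.27%) both lay above, against 34.6% in the genome. Few individual windows passed a test. In simulated counts the window test recovered 2% of falls to 0.5 of the ChIP level and 66% of falls to 0.25. An uncalled window may therefore still have changed. The edgeR quasi-likelihood test of the ratio of ChIP to input, with Benjamini-Hochberg adjustment over the genome, called 16 of 607 windows (2.64%) lower and 0 higher in shSov. The genome-wide shares called were 0.595% lower and 0.264% higher. At an unadjusted p under 0.05 there were 162 windows lower (26.7%) and 0 higher, against 4.45% and 9.30% in the genome. DESeq2 called 25 windows lower (4.12%, against 0.852% in the genome) and 0 higher. With limma on the log ratios 1 was called lower (0.165%, against 0.180% in the genome) and 0 higher. By limma the scaffold thus had no excess of lower windows. The edgeR count rested on which libraries entered. It rose without shW replicate 2 and fell without any other replicate, in fits that leave 1 library in a group. In those fits the median log2 change on 3RHet was -0.40 and -0.45 without shW replicate 1 and 2. Without shSov replicate 1 and 2 it was -0.43 and -0.43. The genome medians, in the same order, were 0.14, 0.29, 0.14 and 0.21.

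**Figure D2:**
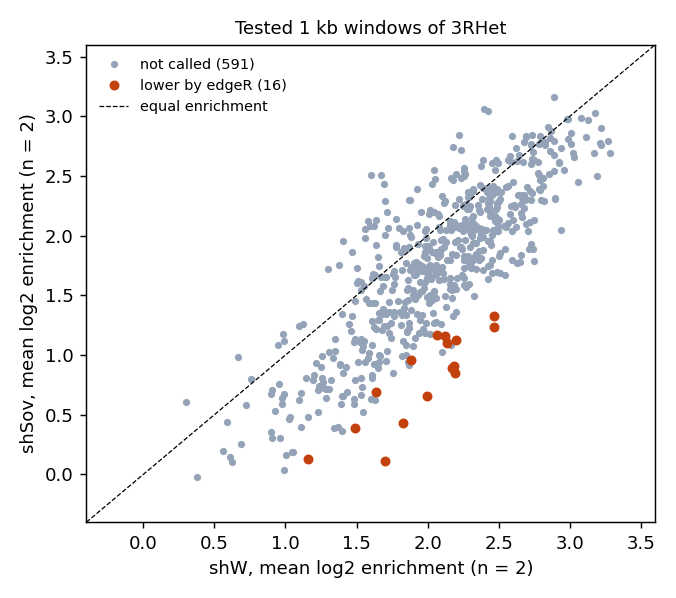
Mean log2 enrichment of each of the 607 tested windows in shSov (vertical axis) and shW (horizontal axis), each a mean of 2 libraries, with the 16 windows called lower by edgeR in red. Most points lie below the dashed line of equal enrichment, and the called windows have shW enrichments between 1.16 and 2.47.

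The 16 called windows fell in 8 bins: 4 each in bins 6 and 24, 2 each in bins 7 and 9, and 1 each in bins 19, 20, 21 and 22. Their log2 changes lay between -1.88 and -1.17. They were of more than one kind: in 8 of the 16 the input itself was called higher in shSov, and in 8 the ChIP itself was called lower, with 1 window in both sets and 1 in neither.

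The first kind is seen in bins 6 and 7. Only 1 of 19 tested windows in bin 6 and 3 of 56 in bin 7 had at least 2 RPKM of input in each genotype, and the windows named here passed through their shSov inputs. A higher shSov input also lowers the ratio, so the choice of windows favours falls of this kind. The window 594001 to 595000 had the largest fall. Its ChIP level was 5.87 and 3.25 RPKM in shSov against 8.55 and 5.64 RPKM in shW, and its input was 4.04 and 3.95 RPKM in shSov against 1.46 and 1.43 RPKM in shW. The ChIP values overlapped between genotypes, and the input values did not. The log2 change of the ratio was -1.88 ± 0.39 (SE; edgeR adjusted p = 0.0094). The nearby window 601001 to 602000 had 9.45 and 7.70 RPKM of ChIP in shSov against 10.69 and 7.83 RPKM in shW, with inputs of 3.93 and 4.67 RPKM in shSov and 0.95 and 1.54 RPKM in shW. Here too the ChIP levels overlapped while each shSov input was above both shW inputs, and the ratio changed by -1.85 (edgeR adjusted p = 0.0058). Windows 597001 to 598000 and 599001 to 600000 changed by -1.66 and -1.49 (edgeR adjusted p = 0.0034 and 0.0257), the first with inputs of 5.11 and 4.86 RPKM in shSov against 1.75 and 1.43 RPKM in shW.

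The window 2374001 to 2375000 in bin 24 combined both patterns. Its ChIP level was 7.69 and 8.72 RPKM in shSov against 17.58 and 9.56 RPKM in shW, and its input was 5.69 and 5.96 RPKM in shSov against 2.41 and 3.59 RPKM in shW. Neither ChIP nor input overlapped between genotypes, and the shW ChIP libraries differed from each other by more than either shSov value differed from the lower of them. The ratio changed by -1.68 (edgeR adjusted p = 0.0036).

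The second kind is seen in bins 19 and 20, in 2 called windows chosen after their values were seen. The window 1810001 to 1811000 had 12.96 and 13.17 RPKM of ChIP in shSov against 46.57 and 29.14 RPKM in shW, with inputs of 4.72 and 5.24 RPKM in shSov and 4.97 and 6.86 RPKM in shW. The window 1932001 to 1933000 had 9.99 and 7.35 RPKM of ChIP in shSov against 38.49 and 21.78 RPKM in shW, with inputs of 3.97 and 4.25 RPKM in shSov and 4.89 and 6.35 RPKM in shW. In both, the ChIP level was lower in both shSov libraries without overlap, and the input was not called different. Their ratios changed by -1.29 and -1.24 (edgeR adjusted p = 0.0297 and 0.0357).

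The most enriched windows lay close together and the least enriched ones did not. The 3 most enriched windows over the 4 ChIP libraries began at 2096001, 2099001 and 2101001, at the border of bins 21 and 22. Enrichment at 2096001 was 2.90 and 2.90 in shSov against 2.62 and 3.81 in shW. At 2099001 it was 3.10 and 2.85 in shSov against 2.74 and 3.52 in shW, and at 2101001 it was 2.93 and 3.12 in shSov against 2.55 and 3.81 in shW. In all 3 windows the shSov values lay between the shW replicates, and no change was called (edgeR adjusted p = 0.49, 0.51 and 0.61). None of them reached a mean input of 2 RPKM in shW, so each passed the threshold through its shSov inputs. At 2096001 the shW inputs held 33 and 13 reads. The 3 least enriched windows began at 1705001, 1823001 and 2498001. Enrichment was -0.07 and 0.04 in shSov against 0.56 and 0.19 in shW at 1705001, and 0.09 and 0.11 in shSov against 0.87 and 0.38 in shW at 1823001. At 2498001 it was 0.28 and 0.01 in shSov against 0.69 and 0.53 in shW. In these weakly marked windows the shSov values were all below the shW values, but no change was called (edgeR adjusted p = 0.51, 0.40 and 0.54). The window at 2498001 also passed the threshold through its shSov inputs.

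Enrichment varied along 3RHet more than it changed between genotypes. Across the 17 bins with at least 5 tested windows, mean enrichment ranged from 0.84 to 2.16 in shSov and from 1.30 to 2.38 in shW. Over the 4 ChIP libraries, bins 18, 20 and 21 had the highest means, at 1.98, 1.98 and 2.00 in shSov against 2.29, 2.38 and 2.38 in shW. That order depended on the pseudocount. Log2 ratios of summed ChIP to summed input over the same windows have no pseudocount. By them bin 21 had 2.37 and 2.41 in shSov against 2.62 and 2.71 in shW. Bin 5 had 2.43 and 2.60 against 2.55 and 2.95, and bin 7 had 2.41 and 2.43 against 2.64 and 2.94. Bin 20 had 2.24 and 2.25 against 2.57 and 2.61. The last bins of the scaffold, 25 and 26, were lowest in mean enrichment, followed by bin 4. Bin 25 averaged 0.97 ± 0.0073 in shSov against 1.53 ± 0.38 in shW, and bin 26 averaged 0.84 ± 0.021 in shSov against 1.30 ± 0.50 in shW (SD, n = 2 each). The shW replicates differed widely there, with replicate 1 at 1.80 in bin 25 and 1.66 in bin 26, and replicate 2 at 1.26 and 0.95.

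The genotype difference changed with position as well. In 12 of the 17 bins both shSov enrichments lay below both shW enrichments, against 11.9% of bins in the genome. In 0 bins both lay above, against 68.5%. The pattern was shared with 3LHet, where both lay below in 16 of 23 such bins and above in 1. The 5 bins of 3RHet whose values overlapped were bins 3, 4, 5, 7 and 8, all before position 800000. In bin 7 the ratios of summed ChIP to summed input over its tested windows did not overlap, with a log2 difference of -0.37. The largest differences were -0.56 in bin 25, with 0.96 and 0.98 in shSov against 1.80 and 1.26 in shW, and -0.49 in bin 19, with 1.65 and 1.60 in shSov against 2.21 and 2.01 in shW. In both bins the groups did not overlap. Bin 26 followed with -0.46. In these end bins the size rested on which shW replicate was used. The edgeR log2 change was -0.33 in bin 25 and -0.08 in bin 26 without shW replicate 1, and -0.89 and -0.88 without shW replicate 2. The only positive differences were 0.13 in bin 4, with 1.68 and 1.76 in shSov against 1.43 and 1.76 in shW, 0.10 in bin 8 and 0.08 in bin 5. Bins 4 and 5 had no window with 2 RPKM of input in each genotype, and their sign was not stable: the edgeR log2 changes were -0.13 in bin 4 and -0.26 in bin 5, and the log2 ratios of summed ChIP to summed input over all windows changed by -0.18 and -0.27. No bin passed the edgeR test, which called 0 of 17 lower and 0 higher (0.23% lower and 0% higher among all bins). At an unadjusted p under 0.05 it gave 9 lower and 0 higher, against 5.76% and 21.6% of all bins. Adjusted p was 0.0942 in bin 19 and 0.153 in bin 25. The bin result depended on the tool and the libraries. DESeq2 called 11 bins lower and limma on the log ratios called 8, against 9.44% and 4.45% of all bins. Without shW replicate 2 edgeR called 10 and without shW replicate 1 it called 7, against 15.7% and 5.07% of all bins.

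**Figure D3:**
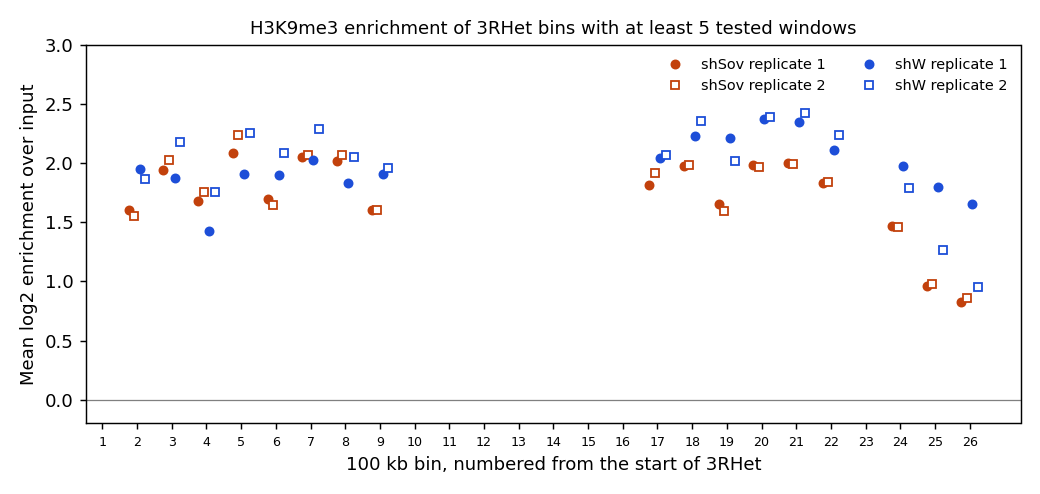
Mean log2 enrichment of the tested windows in each 100 kb bin of 3RHet with at least 5 such windows, one point per library. The shSov points lie below the shW points in 12 of 17 bins, and the shW replicates are farthest apart in bins 25 and 26.

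The amount of 3RHet DNA in the inputs differed between genotypes, which bears on every ratio above. Over all 2518 windows, with no threshold on input, 3RHet took 0.412% and 0.417% of the shSov input reads against 0.302% and 0.328% of the shW input reads. The 95% Wilson intervals, which cover counting error only, were 0.409% to 0.414% and 0.415% to 0.420% in shSov, and 0.299% to 0.305% and 0.325% to 0.332% in shW. No shSov interval touched a shW interval, but the 2 intervals within each genotype did not touch either. Counting error thus does not cover the spread between libraries. The means were 0.415% ± 0.00388 in shSov and 0.315% ± 0.0188 in shW (SD, n = 2 each), a ratio of 1.32 (two-sided exact permutation test, p = 0.33). The share of ChIP reads was 1.87% and 1.94% in shSov against 1.67% and 1.83% in shW, a ratio of 1.09 (p = 0.33 by the same exact test). The ChIP difference was 0.156 percentage points and lay between 0.0760 and 0.235 when each library was left out in turn. The scaffold thus took a larger share of the shSov libraries, by more in input than in ChIP.

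Along the scaffold the input difference was in large blocks. Counts summed over all windows of each of the 26 bins were tested by edgeR, in a comparison added after the data had been examined. Input was higher in shSov in 18 bins and lower in 0 (6.43% higher and 0.59% lower among all bins of the genome). At an unadjusted p under 0.05 it was higher in 21 and lower in 2, against 15.6% and 5.25% of all bins. In 21 bins both shSov inputs lay above both shW inputs, against 42.5% of bins in the genome. The called bins were 1 to 10, 12 to 16 and 22 to 24. Fewer bins were called without shSov replicate 1 or 2, where 1 library remains in a group. The median log2 input change was then 0.71 and 0.75, against 0.74 with all libraries.

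Bin 7 (600001 to 700000) had the largest input difference. Its input averaged 2.71 and 3.12 RPKM in shSov against 1.05 and 1.03 RPKM in shW, and its ChIP averaged 14.30 and 17.05 RPKM in shSov against 6.41 and 7.80 RPKM in shW. Both readouts were higher in shSov with no overlap. The log2 differences were 1.49 ± 0.12 for input and 1.14 ± 0.11 for ChIP (SE; edgeR adjusted p = 0.00013 and 0.000353). In bin 14 (1300001 to 1400000), where no window met the input threshold, input averaged 0.668 and 0.676 RPKM in shSov against 0.210 and 0.286 RPKM in shW. ChIP in that bin averaged 3.76 and 4.04 RPKM in shSov against 1.39 and 1.83 RPKM in shW. Bin 14 thus resembled bin 7 at a lower level, with log2 differences of 1.45 for input and 1.27 for ChIP (edgeR adjusted p = 0.00173 and 0.000849).

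Bins 17 to 21 went the other way. Their input averaged 3.10 and 3.07 RPKM in shSov against 3.31 and 3.44 RPKM in shW, a log2 difference of -0.13. Their ChIP averaged 13.89 and 14.01 RPKM in shSov against 18.39 and 19.22 RPKM in shW, a log2 difference of -0.43. Set beside bins 1 to 9, 10 to 16 and 22 to 26, this stretch had the highest mean ChIP level in both genotypes. Within it bin 19 had 15.68 and 15.51 RPKM of ChIP in shSov against 25.07 and 24.02 RPKM in shW, a log2 difference of -0.65 (edgeR adjusted p = 0.000399). Bin 20 had 20.52 and 20.03 RPKM in shSov against 28.49 and 29.79 RPKM in shW. Input was not called different in any of the 5 bins.

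**Figure D4:**
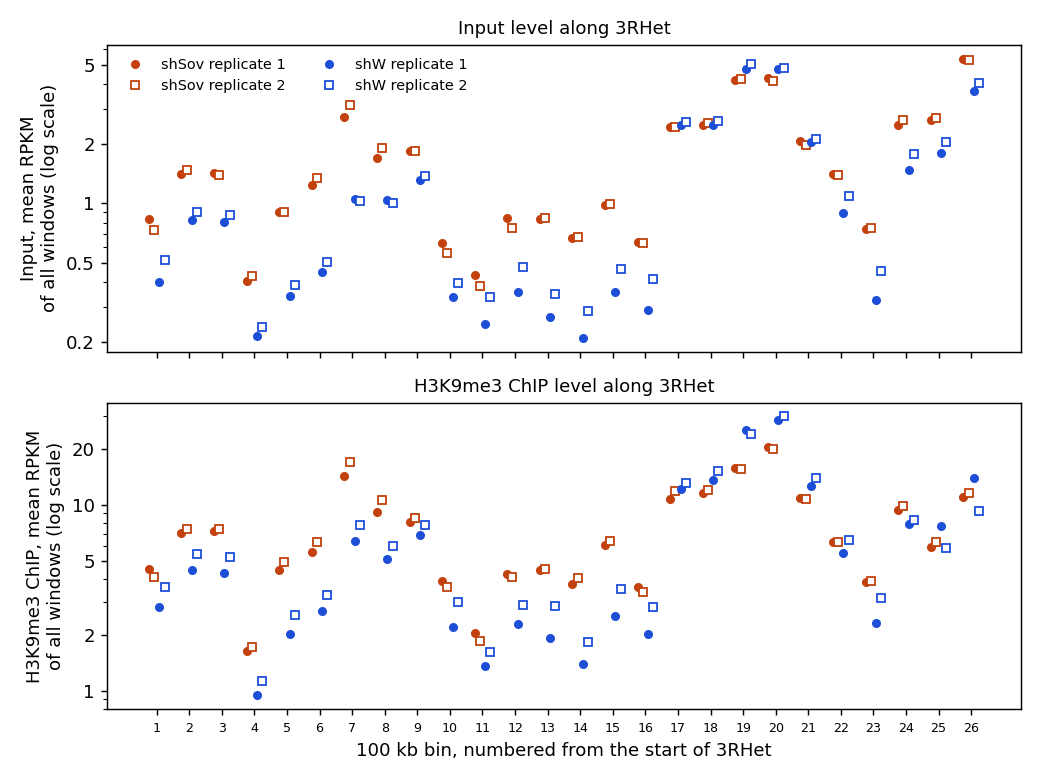
Mean input (upper panel) and H3K9me3 ChIP (lower panel) RPKM over all windows of each 100 kb bin of 3RHet, one point per library, on log scales. Both are higher in shSov across bins 1 to 16, and in bins 17 to 21 the inputs of the genotypes are close while ChIP is lower in shSov.

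Over all 26 bins edgeR called the ChIP level higher in shSov in 14 bins and lower in 4 (31.1% and 11% among all bins of the genome). The lower bins were 18 to 21, and the higher bins were 2 to 8, 10, 12 to 16 and 23. Fewer of each were called without shSov replicate 1 or 2, where 1 library remains in a group. The median log2 ChIP change was then 0.48 and 0.50, against 0.51 with all libraries. Across the 26 bins the log2 change in ChIP followed the log2 change in input, with Pearson r of 0.96 and Spearman rho of 0.95. This is a description, since the bins share the same 8 libraries, and the 26 bins of 3LHet gave 0.92 and 0.95. In nearly all bins the log2 change in ChIP lay below that in input. The log2 ratio of summed ChIP to summed input RPKM uses every window and no pseudocount. It was lower in shSov in 25 of 26 bins, with a median difference of -0.27 and a range of -0.60 to 0.01. On 3LHet it was lower in 24 of 26 bins, with a median difference of -0.10. By edgeR 1 of the 26 bins of 3RHet, bin 19, was called lower and 0 higher (2.89% lower and 0.354% higher among all bins). With TMM factors 4 bins were called lower and with DESeq2 5 (4.72% and 5.90% of all bins), and without shW replicate 1 and without shW replicate 2 the numbers were 10 and 11 (6.84% and 15% of all bins).

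**Figure D5:**
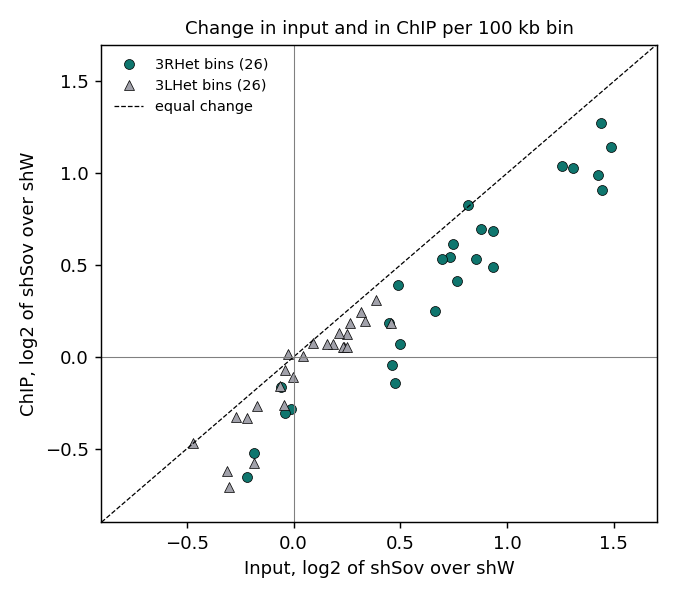
Log2 ratio of shSov to shW in ChIP (vertical axis) against the same ratio in input (horizontal axis) for the 100 kb bins of 3RHet and 3LHet, each from means of 2 libraries per group and all windows. The 3RHet bins stretch to an input log2 ratio of 1.49, and the 3LHet bins stay between -0.47 and 0.46.

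The size of the scaffold's mean change of -0.31 depended on the treatment of input, on the windows taken and on the pseudocount. From the ChIP libraries alone the difference was -0.01 (p = 0.667, two-sided exact permutation test), and one common input for all libraries gives the same number by construction. Over every window with a read it was -0.06. Among the 422 windows with at least 2 RPKM of input in each genotype it was -0.40, and with a pseudocount of 5 RPKM it was -0.15. The log2 ratio of summed ChIP to summed input, which has no pseudocount, had a median difference of -0.27 over the 26 bins. The part that input DNA plays in the lower ratio was not tested by any other measurement. In 350 of the 607 tested windows (57.7%) both shSov inputs lay above both shW inputs, against 27.3% in the genome, and in 117 (19.3%) both lay below, against 24.8%. The first count is partly fixed by the threshold, which 180 windows passed through shSov alone. Among the 422 windows that met it in each genotype, both shSov inputs lay above in 175 (41.5%) and below in 113 (26.8%), against 27% and 24.8% of such windows in the genome. The ChIP level was below both shW values in both shSov libraries in 247 windows (40.7%, against 15.6% in the genome) and above them in 194 (32.0%, against 41.1%). Among the 422 windows the ChIP counts were 235 (55.7%) below and 48 (11.4%) above, against 15.6% and 41.1% of such windows in the genome. By edgeR the input of tested windows was called higher in shSov in 141 and lower in 7 (0.695% and 0.662% in the genome). Among the 422 windows the input calls were only 19 higher and 4 lower (0.399% and 0.530% of such windows in the genome). The count of 141 fell without shSov replicate 1 or 2, where 1 library remains in a group. The median log2 input change was then 0.34 and 0.32, against 0.33 with all libraries. In the single windows ChIP was called lower in 130, of which 114 lay in bins 17 to 21, and higher in 131, of which 100 lay in bins 5 to 8 (5.9% and 7.34% in the genome).

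Pooled over the scaffold, the input difference was larger in windows of low coverage than in those of high coverage. In 3RHet windows with mean input under 0.5 RPKM the ratio of shSov to shW input was 1.77, and at 0.5 to 1 and 1 to 2 RPKM it was 1.77 and 1.80. At 2 to 5 RPKM it was 1.48, and at 5 RPKM or more it was 0.95. The ratio also varied with position. Over all their windows, bins 5, 6 and 7 had ratios of 2.47, 2.69 and 2.81. Among the sparsely covered bins 10 to 16, the ratio over all windows ranged from 1.40 in bin 11 to 2.72 in bin 13. On 3LHet the ratios by input level, in the same order as above, were 1.05, 1.11, 1.13, 1.02 and 0.858. Low-coverage windows of 3LHet thus had inputs close to equal between genotypes, and those of 3RHet did not.

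The neighbouring compartments gave a scale for these changes. On 3LHet, the matching scaffold of the left arm, enrichment averaged 1.89 ± 0.010 in shSov and 2.06 ± 0.015 in shW (SD, n = 2 each) over 865 tested windows of 2556. The change on 3RHet differed from that on 3LHet by -0.14 on the log2 scale. From the ChIP libraries alone that difference turned to 0.20. The input share of 3LHet was 0.474% and 0.463% in shSov against 0.466% and 0.498% in shW, with overlap, and the log2 input change of 3RHet was greater by 0.44. In the 1 Mb of the 3R arm nearest the centromere, enrichment averaged -0.06 in shSov and -0.11 in shW, and the change on 3RHet differed from that by -0.35. The change on 3RHet differed from that on 2LHet, which was -0.32, by 0.01. These were among 12 differences between 3RHet and other compartments tested over libraries by the two-sided exact permutation test. By that exact permutation test each difference named here had p = 0.33, except that to 2LHet with p = 1, and no Benjamini-Hochberg adjusted value was below 0.4.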

How the data were processed

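H3K9me3 ChIP and input DNA were sequenced from ovaries of both genotypes, with 2 libraries in each of 4 groups. The submitters' processing notes name Bowtie, bedtools and genome build dm3; their settings, and the treatment of repeated or duplicate reads, are not given in the sources used here. The deposited tables give for every 1 kb window the authors' read count and the authors' RPKM, which is the count scaled to window length and library total. No spike-in is described, so all levels are relative to the library.

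Titles carrying "repeat" were numbered replicate 2, and a ChIP was set against the input of its genotype and number. Enrichment used a pseudocount of 1 RPKM. Counts were tested with edgeR 4.0.16 in R 4.3.3 (quasi-likelihood, all 8 libraries, interaction of genotype and antibody, library totals as offsets, Benjamini-Hochberg adjustment over all tested windows or bins of the genome at 0.05), after the scripts had been tested on simulated data. In the simulated data the window test recovered 2% of falls to 0.5 of the ChIP level and 66% of falls to 0.25. The bin test recovered 82% and 100%. Of the calls, 9.4% were false among windows and 4.6% among bins. Means per library were compared by exact permutation with scipy 1.17.1, and limma 3.58.1 and DESeq2 1.42.0 served as alternatives. Windows named in the text were the 5 largest falls among called windows and the 3 highest and 3 lowest in enrichment, and bins were the 3 highest, 3 lowest and 3 largest changes each way. The scaffold, windows, bins and tests were chosen with earlier results of these data known, and the tests of input, ChIP and unfiltered bins were added after seeing them. No gene names or sequences are given, since no annotation of dm3 was used here.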

Additional observations from a re-analysis of the deposited data

Results flagged for a closer look

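The 1911 windows of 3RHet that did not reach the input threshold, and so enter none of the window tests, carried ChIP signal above input in every library. Their ChIP averaged 3.67 and 3.75 RPKM in shSov against 2.19 and 2.76 RPKM in shW, and their input averaged 0.696 and 0.690 RPKM in shSov against 0.353 and 0.423 RPKM in shW. The log2 ratio of these means was 2.40 and 2.44 in shSov against 2.63 and 2.71 in shW, so the lowest of the 4 libraries was at 2.40. The shSov ratios lay below the shW ratios by -0.25 on average (two-sided exact permutation test, p = 0.33).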

How the results depend on the processing

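The mean change of -0.31 kept its sign under every alternative run and lay between -0.49 and -0.01; leaving out each library in turn gave -0.313 to -0.306, and the exact test with the replicate block gave p = 0.5, the smallest it allows. The difference from 3LHet, -0.14, became 0.20 with ChIP alone, which a common input for all libraries equals by construction (leaving out libraries gave -0.15 to -0.13). The 16 windows called lower became 25 with DESeq2, 1 with limma, 7 with the lysate block, 10 with the input threshold in each genotype and 68 on ChIP counts alone, and ranged between 0 and 123 without single libraries. Windows called higher were 87 on ChIP alone (14.3%, against 2.84% in the genome). Windows with lower input (7, or 1.15% against 0.662%) became 4 with DESeq2 (0.659% against 0.117%) and 32 on inputs alone (5.27% against 4.36%). With the threshold in each genotype they were 4 (0.948% against 0.530%). Windows with higher input (141) became 292 over windows with at least 10 reads and 19 with the threshold in each genotype, and ranged between 51 and 157. Tested bins called lower (0) became 11 with DESeq2 (64.7% against 9.44%), 8 with limma (47.1% against 4.45%) and 4 on ChIP alone (23.5% against 9.13%). With windows of at least 10 reads, and over all windows, 1 of 26 was called (3.85%, against 2.91% and 2.89%). Tested bins called higher (0) became 5 on ChIP alone (29.4% against 16.6%). Among unfiltered bins, those with lower input (0) became 2 with DESeq2 and 2 on inputs alone, and ranged between 0 and 2. Those with higher input ranged between 10 and 21, with lower ChIP between 1 and 6 and with higher ChIP between 7 and 19. The log2 change by edgeR was -0.13 in bin 4, against 0.13 with limma and -0.20 to 0.047 without single libraries. In bin 5 it was -0.26, against 0.079 with limma. In bin 8 it was 0.12, against -0.019 with DESeq2 and -0.045 with the threshold in each genotype. The cause of these changes was not tested. The numbers in the titles did not pair the genotypes (r = -0.03 over tested windows between deviations of like-numbered libraries). With the number as a replicate block edgeR called 12 windows lower (1.98%, against 0.523% in the genome) and 0 higher (0.223% in the genome). The settings on inputs, on the threshold in each genotype and on unfiltered bins were chosen after seeing the data. The shW inputs, with a median of 43 and 33 reads per tested window, limit what single windows can show.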

Other observations

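The stretch from bin 10 to bin 16, which the input threshold removes whole, had the highest ratio of ChIP to input among the long stretches of the scaffold. Over its 700 windows the log2 ratio of mean ChIP to mean input RPKM was 2.48 and 2.53 in shSov against 2.73 and 2.77 in shW. Bins 1 to 9 gave 2.32 and 2.37 in shSov against 2.47 and 2.65 in shW, and bins 17 to 21 gave 2.16 and 2.19 in shSov against 2.47 and 2.48 in shW. Bins 22 to 26 were lowest, with 1.73 and 1.76 in shSov against 2.33 and 2.07 in shW. The stretches were delimited after the values were seen, and these values carry no test.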
